A study of Mus musculus with 2 samples.

Results

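Embryonic stem (ES) cells keep their identity through a small network of regulators, and leaving that state is the first step towards any lineage. The 10 genes described here are Pou5f1, Nanog, Sox2, Esrrb, Tfcp2l1, Zfp42, Prdm14, Dppa3, Lin28a and Sall4, and the question was where open chromatin was listed at them in cardiac progenitor cells (CPCs). They were taken by name, as the distinct peaks whose assigned gene symbol equals one of these names, and a gene without such a peak counted as 0. Of 26232 distinct peaks assigned to 15351 genes, 21 peaks belonged to 7 of the 10 genes. None of the older names of these genes appeared in the list.

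Open chromatin was measured by ATAC-Seq, which uses the Tn5 transposase to cut and tag accessible DNA. The cells were day 5 CPCs made from mouse E14 ES cells that carry an Nkx2-5-EmGFP transgene, a green reporter of early heart cells, and the strain is labelled C57BL/6. Per the labels of both samples, the ES cells grew on mouse embryonic fibroblast feeders in LIF, then on gelatin, and were aggregated and treated with Activin A, VEGF and BMP4 before plating in VEGF, bFGF and FGF10. The only group held 2 replicate samples. The design text of the series names control and Isl1 knockdown progenitors. Neither sample title carries such a label, but the deposited peak list is named as control. Both samples were therefore taken as 1 group of control cells. Per the study's methods the replicates came from separate differentiations, and no sort of the cells for the reporter is stated for this assay. The methods also state that the directed protocol usually made most, not all, cells positive for the reporter.

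Both samples share 1 list of peaks found in each, so there was no value per sample, no read depth, no replicate error and no test. Every number below describes that list. In a bulk sample, a site open in few cells and a site weakly open in many cells cannot be told apart, and neither can an unlisted site and one seen in a single replicate.

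In mouse ES cells the factors Oct4 (encoded by Pou5f1), Sox2 and Nanog occupy the regulatory DNA of one another and of many further genes. Around this core, the naive state draws on Esrrb, Tfcp2l1, Zfp42 (Rex1), Prdm14 and Dppa3 (Stella), whose RNAs fall early when cells leave the naive state. Lin28a and Sall4 differ in that both are also used in the embryo after pluripotency has ended, and Sox2 is used again in neural and foregut progenitors.

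The 10 genes fell into 3 patterns. Pou5f1, Prdm14 and Dppa3 had no assigned peak, and Nanog had upstream peaks but none at its transcription start site (TSS). The other 6 genes had a peak whose midpoint lay within 1 kb of the TSS. Among these, Sox2 and Lin28a carried broad peaks of 2932 and 4529 bp. The naive-state genes Esrrb, Tfcp2l1 and Zfp42 carried ones of 920 to 1005 bp, and Sall4 lay between at 1269 bp. The place of Sall4 depends on how the list splits the region, since a second Sall4 peak of 1323 bp lay only 126 bp away.

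Sequences are shown from the open DNA of 6 of the 7 genes that had a peak, because they let the promoters that were open be compared letter by letter. For the 5 of these with a peak over the TSS they are the 200 bases just before it, and for Nanog the central 200 bases of its wider peak. All are mm9 sequence, read 5′ to 3′ on the strand of the gene, and none overlaps an annotated UTR. Capitals mark matches, on either strand, to 7 short motifs: ATTTGCAT for POU factors such as Oct4, ACAATG for SOX factors, AAGGTCA for ESRRB, GGGCGG for KLF and SP factors, CCAAT for NF-Y, AGATAA for GATA factors and GGAATG for TEAD factors.
Sox2, upstream of the TSS, chr3:34548727-34548926, plus strand: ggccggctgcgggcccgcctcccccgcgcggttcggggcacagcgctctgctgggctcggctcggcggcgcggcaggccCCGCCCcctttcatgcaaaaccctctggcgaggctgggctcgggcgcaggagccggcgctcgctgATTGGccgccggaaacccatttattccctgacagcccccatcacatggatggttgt
Esrrb, upstream of the TSS, chr12:87762394-87762593, plus strand: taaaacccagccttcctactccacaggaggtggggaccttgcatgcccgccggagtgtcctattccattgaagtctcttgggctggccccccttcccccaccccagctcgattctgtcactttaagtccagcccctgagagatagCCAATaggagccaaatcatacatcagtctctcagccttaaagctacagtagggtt
Tfcp2l1, upstream of the TSS, chr1:120524322-120524521, plus strand: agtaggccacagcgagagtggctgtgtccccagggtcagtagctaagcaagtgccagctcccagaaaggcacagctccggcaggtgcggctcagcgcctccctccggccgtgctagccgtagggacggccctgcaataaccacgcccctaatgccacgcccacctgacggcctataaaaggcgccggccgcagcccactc
Zfp42, upstream of the TSS, chr8:44392364-44392563, minus strand: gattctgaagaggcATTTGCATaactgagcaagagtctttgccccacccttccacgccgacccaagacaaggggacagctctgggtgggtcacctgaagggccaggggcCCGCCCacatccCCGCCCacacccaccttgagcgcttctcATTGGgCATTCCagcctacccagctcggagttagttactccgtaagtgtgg
Lin28a, upstream of the TSS, chr4:133574757-133574956, minus strand: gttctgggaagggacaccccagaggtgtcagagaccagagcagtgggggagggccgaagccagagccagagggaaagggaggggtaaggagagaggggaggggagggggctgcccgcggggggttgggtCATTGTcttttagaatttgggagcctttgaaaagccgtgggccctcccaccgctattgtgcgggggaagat
Nanog, centre of the wider upstream peak, chr6:122652642-122652841, plus strand: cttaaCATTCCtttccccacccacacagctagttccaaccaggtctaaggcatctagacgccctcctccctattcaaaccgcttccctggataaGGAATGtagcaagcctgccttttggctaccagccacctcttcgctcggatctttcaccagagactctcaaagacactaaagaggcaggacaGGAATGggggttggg

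These windows held 12 matches, none overlapping another, and their composition differed widely. The window of Sox2 was the richest in CpG, with 72.0% GC and a CpG ratio, the observed count of CpG over that expected from base composition, of 0.85. It held 1 KLF and SP match and 1 NF-Y match. The windows of Esrrb and Lin28a had CpG ratios of 0.22 and 0.37, and held 1 NF-Y and 1 SOX match respectively. Zfp42 had the most matches, with 5, among them the octamer of POU factors. The octamer occurred in 1.34% of the windows of this length before all 22367 coding start sites, and the GGGCGG box, which the Zfp42 window held 2 times, in 38.5%. In the window of Nanog all 3 matches were to the TEAD motif. The window of Tfcp2l1 held none, which says only that these letters are not in it.

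**Figure D1:**
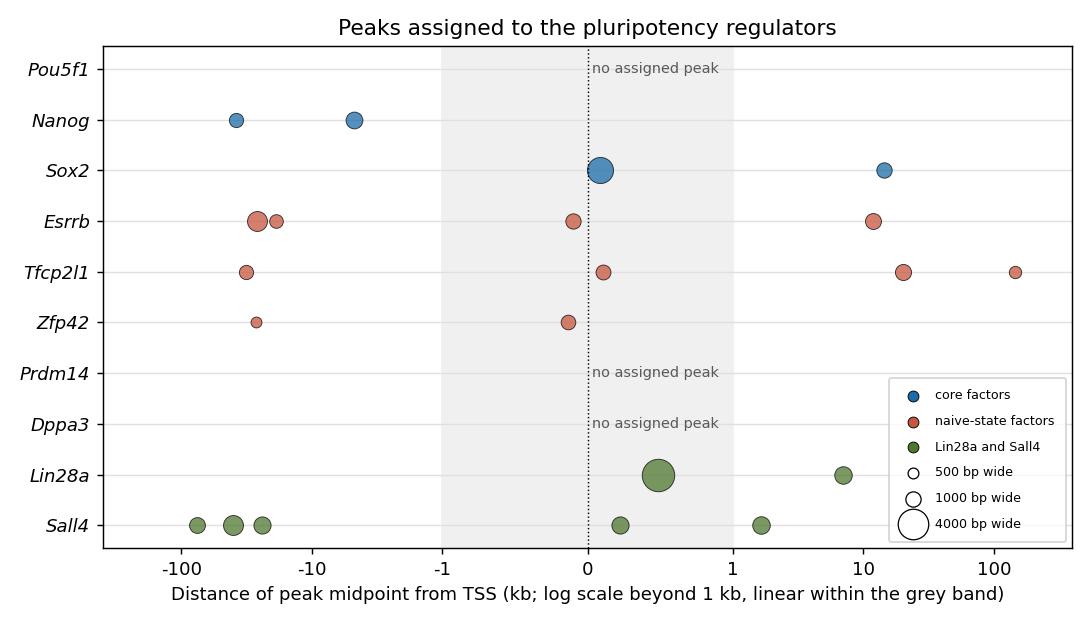
Peaks assigned to each of the 10 genes by distance of the peak midpoint from the TSS (x axis, kb, linear within 1 kb and logarithmic beyond), with upstream to the left and the area of each point proportional to peak width. Points are peaks found in both replicates. Pou5f1, Prdm14 and Dppa3 have none, and 6 of the other 7 genes have a point inside the grey band of 1 kb on either side of the TSS.

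With a peak at 7 of 10 genes, the regulators stood close to the background, since 62.5% of 21887 protein coding genes had at least 1 assigned peak. A peak within 1 kb of the TSS was found at 6 of 10, against 50.1% of coding genes. The 7 genes with a peak had 3.00 peaks each on average and a median of 2, compared with a mean of 1.71 and a median of 1 over coding genes with a peak. Over all 10 genes the mean was 2.1. In the further lists described below it ranged from 1.46 (targets and signals of ES cells) to 3.8 (cardiac progenitor markers). Esrrb, Tfcp2l1 and Sall4 had 4 or more, a number reached by 7.66% of coding genes with a peak. Of the 21 peaks 6 (28.6%) lay within 1 kb of the TSS, while 44.9% of all peaks did so. Beyond 10 kb lay 12 of the 21 and 10848 of all 26232 peaks. With 10 genes, shares of this kind move by 10 percentage points for each gene.

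Among the core factors, Pou5f1, a POU-homeodomain protein without which ES cells turn to trophoblast, had no peak. Its gene body occupies chr17:35642982-35647721 on the plus strand. The nearest peak started 9520 bp from its TSS, past the end of the gene, and was 2477 bp wide (chr17:35652502-35654978). That peak covered the start sites of the neighbouring genes Tcf19 and Cchcr1, which are read in opposite directions, and was assigned to Tcf19. On the other side of Pou5f1 there was no peak for 65.4 kb. Of the 32-base words in the 500 bp on either side of the Pou5f1 TSS, 2.58% had a further copy elsewhere in the genome, compared with 9.62% at all coding start sites.

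Nanog, a homeodomain protein that stabilises the undifferentiated state, had 2 peaks, both upstream and intergenic (NM_028016, gene at chr6:122657507-122664651). The nearer, of 1212 bp, was centred at −4766 bp (chr6:122652136-122653347), and the gap from its edge to the TSS was 4160 bp. Its width exceeded that of 69.5% of all peaks lying 1 to 10 kb from a TSS. The farther was 875 bp wide at −37952 bp (chr6:122619119-122619993), in the middle of the widths of peaks beyond 10 kb. The Nanog promoter itself was not covered. No 32-base word of its TSS window occurred a further time in the genome.

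Dppa3, which protects methylated maternal DNA in the early embryo, lies beside Nanog in the same cluster on chromosome 6 (chr6:122576428-122580290) and had no peak. The peak nearest to its TSS was 16140 bp away, was 852 bp wide (chr6:122559437-122560288) and covered the TSS of Gdf3, a TGF-beta family ligand of the same cluster. The farther Nanog peak lay on the other side, so the interval between peaks of other genes that holds Dppa3 spanned 58.8 kb. In the Dppa3 TSS window 14.2% of 32-base words were repeated in the genome, the highest share of the 10 genes. Zfp42 and Lin28a, which had TSS peaks, followed at 8.66 and 4.74%. The windows of Sox2, Esrrb, Tfcp2l1 and Sall4 held no repeated word, that of Esrrb being taken at its 5′-most start site. The part of repeated words in the presence or absence of a peak was not tested at any of the genes.

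Sox2, an HMG-box protein that pairs with Oct4 on DNA, was the only core factor with a TSS peak. This peak measured 2932 bp and was centred at 88 bp (NM_011443, chr3:34547540-34550471), wider than 98.2% of peaks within 1 kb of a TSS. It ranked 324 of 26232 by width, and covered all 3 annotated start sites of Sox2, whose gene is 2457 bp long. The interval stood on 2 lines of the deposited list and was counted once. Over the whole list 196 intervals stood on more than 1 line, and no other peak of the 10 genes did. A second peak of 1012 bp lay 14481 bp downstream (chr3:34562893-34563904), in an intron of the long noncoding gene Sox2ot, which spans the whole Sox2 locus. The count of 2 depends on the assignment, since 5 further peaks deposited under Sox2ot, Gm38509 and Mir6378 were nearest to the Sox2 TSS among coding genes, which gave 7. The GC content of the 2 peaks was 62.3 and 55.0%, with CpG ratios of 0.77 and 0.75, the latter the highest of the peaks beyond 1 kb at these genes.

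Of the 5 naive-state genes, 3 had peaks, 10 in all. Esrrb, an orphan nuclear receptor that can stand in for Nanog in ES cells, had 4 (NM_011934, gene at chr12:87702067-87862578). The TSS peak was 1005 bp wide at −102 bp (chr12:87761991-87762995) and covered the annotated start sites at 87762594 and 87762833, while the 5′-most start site, at 87702067, had none. Peaks of 1704 and 800 bp lay at −26124 bp (chr12:87735619-87737322) and −18805 bp (chr12:87743390-87744189), both in an intron of the longest gene model. A peak of 1090 bp lay 11847 bp downstream (chr12:87773897-87774986), also in an intron. The peak at −26124 bp was thus wider than the one at the promoter, and wider than 95.1% of all peaks beyond 10 kb.

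Tfcp2l1, a CP2-family factor that acts downstream of LIF signalling, also had 4 peaks (NM_023755, gene at chr1:120524522-120581744). The TSS peak was 954 bp wide at 109 bp (chr1:120524155-120525108). A peak of 1115 bp lay in an intron of the gene, 20275 bp downstream (chr1:120544241-120545355). The other two lay outside it, at −32199 bp in an intron of Clasp1 (872 bp, chr1:120491888-120492759) and at 144496 bp downstream in intergenic sequence (657 bp, chr1:120668691-120669347). The last was the most distant peak of the 10 genes. The peaks at −32199 and 20275 bp were poor in CpG, with ratios of 0.11 and 0.12.

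Zfp42, a zinc finger protein whose reporter is a common readout of the naive state, had 2 peaks (NM_009556, gene at chr8:44380422-44392363, minus strand). The TSS peak of 920 bp (chr8:44392036-44392955) was the narrowest of the 6, with its midpoint at −132 bp. The other, at −26625 bp, was 509 bp wide (chr8:44418735-44419243), narrower than all but 3.25% of peaks beyond 10 kb. The gene is isolated in this list. Peaks of other genes were 1878 kb away on one side and 484 kb on the other, while the corresponding interval around the other 9 genes spanned 58.8 to 379 kb.

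Prdm14, a PR-domain protein that holds down DNA methyltransferases and FGF signalling in ES cells, had no peak (chr1:13103538-13117244, minus strand). It was the most remote of the 10 from open chromatin, with the nearest peak 89353 bp from its TSS and assigned to Slco5a1 (731 bp, chr1:13027161-13027891). None of the 32-base words in its TSS window was repeated.

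Lin28a, an RNA-binding protein that blocks maturation of let-7 miRNAs, had the widest peak of the 10 genes. It measured 4529 bp, was centred at 485 bp (NM_145833, chr4:133571983-133576511, gene at chr4:133559245-133574756, minus strand) and ranked 35 of 26232. It covered the Lin28a TSS and also that of Gm13061, a noncoding gene read in the opposite direction. The promoter of Lin28a is poor in CpG, with a ratio of 0.38, and its peak was wider than 99.8% of the peaks over 3068 CpG-poor promoters, whose median was 1156 bp. A second peak of 1323 bp lay in an intron 6948 bp downstream (chr4:133567123-133568445).

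Sall4, a zinc finger protein of ES cells and of the limb and heart of the embryo, had 5 assigned peaks, the most of the 10 by deposited symbol (NM_175303, gene at chr2:168573832-168593443, minus strand). By nearest coding TSS it had 4, and Sox2 had the most with 7. The TSS peak of 1269 bp at 224 bp was separated by 126 bp from a peak of 1323 bp at 1646 bp (chr2:168590395-168591717). This second peak covered a further Sall4 start site and that of the noncoding gene Gm14261. The other 3 peaks were intergenic and upstream, at −24215 bp (1267 bp, chr2:168616284-168617550), −40308 bp (1704 bp, chr2:168632158-168633861) and −75330 bp (1080 bp, chr2:168667492-168668571). Their widths exceeded those of 84.8, 95.1 and 73.5% of all peaks beyond 10 kb. The narrowest of the 5 peaks of Sall4, at 1080 bp, was close to the median of the whole list of 1081 bp.

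Over the 21 peaks the median width was 1090 bp and the range 509 to 4529 bp, close to the median of all peaks. Set against peaks at like distances, the median was lower at the TSS (1137 against 1326 bp) and higher beyond 1 kb (1090 against 911 bp). Of the 6 TSS peaks, only those of Sox2 and Lin28a were wider than the median of 1326 bp for all peaks within 1 kb. The TSS peaks of Tfcp2l1 and Esrrb were wider than 14.3 and 18.7% of that class, that of Zfp42 was narrower still, and all 3 lay under its lower quartile of 1072 bp. Among peaks over CpG-poor promoters, whose lower quartile was 941 bp, those of Tfcp2l1 and Zfp42 were wider than 26.2 and 22.8%, so that of Tfcp2l1 lay above the quartile. Among peaks over CpG-rich promoters, taken at the 5′-most coding start sites, that of Esrrb was wider than 10.7%. Esrrb itself is CpG-rich only at the start site used in the list. Of the 12 peaks beyond 10 kb, 7 were wider than the class median of 880 bp.

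**Figure D2:**
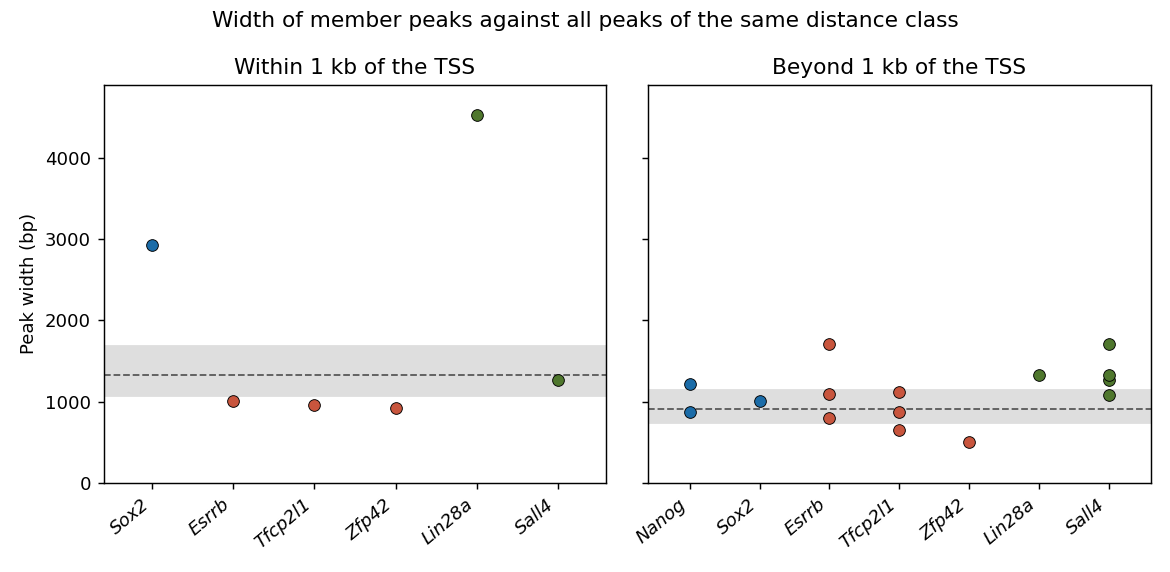
Width in bp (y axis) of each peak of the 7 genes that had one, within 1 kb of the TSS (left) and beyond (right). The dashed line and grey band give the median and quartiles of all peaks of that class, and the colours mark core factors (blue), naive-state factors (red) and Lin28a and Sall4 (green). The TSS peaks of Esrrb, Tfcp2l1 and Zfp42 lie under the band, and those of Sox2 and Lin28a far above it.

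The 15 peaks beyond 1 kb comprised 9 upstream and 6 downstream of the TSS. By the annotation at their midpoints 6 lay inside the gene they were assigned to, 7 in intergenic sequence and 2 inside another gene. In the central 200 bases of all 21 peaks, the GATA motif occurred in 1 (Tfcp2l1 at −32199 bp), against 6.69% of all peaks and 10.5% of peaks beyond 1 kb. The TEAD motif occurred in 5, against 11.6% of all peaks and 16.1% of peaks beyond 1 kb. These 5 were at Esrrb (−26124 bp), Nanog (−4766 bp), Sox2 (14481 bp), Tfcp2l1 (144496 bp) and Zfp42 (−132 bp). The POU octamer occurred in 1 (Zfp42 at −132 bp, against 1.37% of all peaks), the SOX motif in 2 (5.31%) and the ESRRB motif in 1 (2.52%). Of all peaks beyond 1 kb, these 3 motifs occurred in 2.05, 7.26 and 3.46%. GGGCGG and CCAAT occurred in 6 each, against 33.4 and 20.9% of all peaks and 16.7 and 22.1% of peaks beyond 1 kb. Of the peaks with GGGCGG only that of Zfp42 lay within 1 kb of the TSS. A match is a description of letters and not measured binding.

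Promoters rich in CpG are often open in any cell type, so the 10 were also set beside promoters of like composition. A promoter was the 500 bp on either side of the TSS, and was CpG-rich where the CpG ratio reached 0.6 and GC reached 50%. At the 5′-most coding start site, Sox2 and Sall4 were CpG-rich and both were overlapped by a peak, as were 89.4% of all CpG-rich promoters. The other 8 were CpG-poor, and 3 were overlapped (Tfcp2l1, Zfp42 and Lin28a), where 24.7% of CpG-poor promoters were. At the start site used in the list Esrrb was CpG-rich too, with a ratio of 0.66.

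Among the promoters that were CpG-poor at the start site used in the list, the ratio did not separate open from unlisted ones. Esrrb, CpG-poor only at its 5′-most start site, had a ratio of 0.28 there and no overlapping peak. Lin28a at 0.38 had a peak, while Pou5f1 at 0.33, Nanog at 0.30, Dppa3 at 0.44 and Prdm14 at 0.50 had none, and Zfp42 at 0.49 and Tfcp2l1 at 0.58 had one. Over the genome a peak overlapped 25.3% of promoters with a ratio of 0.3 to 0.4, 52.1% of those at 0.4 to 0.5 and 75.3% of those at 0.5 to 0.6. Prdm14 and Dppa3 were without a peak in classes where 75.3 and 52.1% of promoters had one. Prdm14, at 0.504, lay at the lower edge of its class, and over all CpG-poor promoters the share was 24.7%. Lin28a had a broad peak in a class where most had none.

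**Figure D3:**
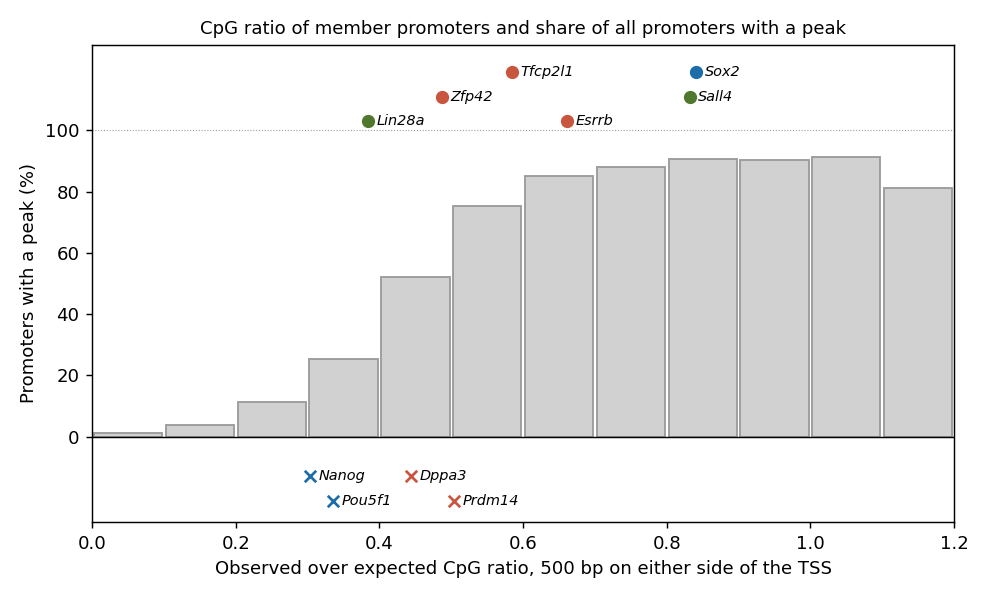
Share of all coding promoters overlapped by a peak (bars, y axis, %) by observed over expected CpG ratio (x axis), at the 5′-most coding start site. The 10 genes are placed by the ratio at the start site used in the list, as circles above the bars where a peak lay within 1 kb of the TSS and as crosses below where none did. All 4 crosses lie at ratios of 0.30 to 0.50, and the circles span 0.38 to 0.84.

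The wider network was examined through 4 further lists with 37 genes, of which 32 had a peak and 24 had one within 1 kb of the TSS. Over all coding genes the corresponding shares were 62.5 and 50.1%. Among 11 partner transcription factors 10 had a peak and 9 a TSS peak. Klf4, a Krüppel-like factor of ES cells and of many other cell types, had the most, with 8, followed by Mycn with 5, and Nr0b1, a nuclear receptor of the naive state on the X chromosome, had none. All 5 genes of the LIF pathway had a TSS peak, with 6 peaks each at Lifr, a subunit of the LIF receptor, and Socs3, the feedback inhibitor of JAK and STAT signalling. The 8 genes of the formative and primed states that follow naive pluripotency all had a peak, and 6 had one at the TSS. Pou3f1 and Dnmt3a had 6 each, and the nearest peaks of Otx2 and Zic2 were 7695 and 5857 bp from the TSS.

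The remaining list held targets and signals of ES cells. Of 13 genes 9 had a peak, close to the 62.5% of all coding genes. Only 4 had one at the TSS (Fgf4, Utf1, Gdf3 and Tet2), beside 50.1% of all coding genes. The 4 genes without any peak were Dppa2, Dppa4, Fbxo15 and Tdgf1, as with Pou5f1, Prdm14 and Dppa3 among the regulators. The share of genes with a peak was no lower in either list than the 62.5% of all coding genes. Tet1, an enzyme that oxidises methylated cytosine, had the most with 4. Differences between lists of this size were not tested.

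Relatives of the regulators that serve in other tissues or in most cells were also counted. The list held no relative of Nanog, Prdm14 or Dppa3, so its counts do not match the 10 genes family by family. All 11 had a peak and 10 had one at the TSS, beside 62.5 and 50.1% of all coding genes. The exception at the TSS was Lin28b, whose nearest peak was 3215 bp away. The median TSS peak was 2058 bp wide, against 1137 bp for the 6 TSS peaks of the regulators. A low median was not particular to the regulators, since it was 1138 bp for the cardiac progenitor markers described below. In the remaining lists it ranged from 1276.5 bp (endoderm markers) to 2045 bp (formative and primed genes). Esrra, the broadly used relative of Esrrb, had a TSS peak of 2843 bp, and Esrrg had one of 920 bp. Tfcp2 and Ubp1, relatives of Tfcp2l1, had TSS peaks of 1249 and 2037 bp. Peaks over CpG-rich promoters had a median of 1429 bp and those over CpG-poor ones 1156 bp. The part of CpG content in the differences between these lists was not tested.

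Markers of the labelled cell type and of other cells the cultures could hold were also counted. Of 10 cardiac progenitor markers 9 had a peak and 7 a TSS peak, beside 62.5 and 50.1% of all coding genes. Isl1 had 8 peaks and Tbx20 had 6, and Hand2 had none assigned. For fibroblasts, which served as feeders for the ES cells, 4 of 6 markers had a peak, each with a TSS peak, at Thy1, Col1a1, Col1a2 and Twist2, while Dcn and Postn had none. For endoderm it was 4 of 6 with 2 at the TSS, Foxa2 having 7 peaks and Hnf4a and Afp none. For endothelium and blood it was 4 of 6 with 1 at the TSS, at Kdr, while Tek and Gata1 had none. The 4 of 6 with a peak for fibroblasts, endoderm, and endothelium and blood lay close to the 62.5% of all coding genes. An open promoter in a list of this kind is not a measure of how many cells of a type were present, and the part of other cells in the peaks of the 10 regulators was not tested.

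**Figure D4:**
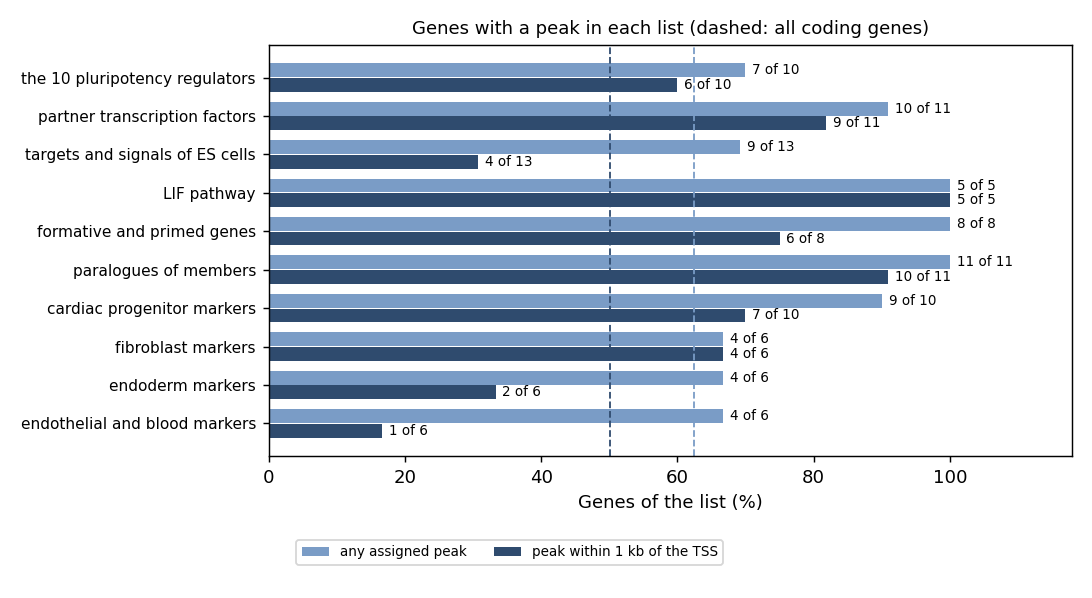
Share of genes (x axis, %) with any assigned peak (light bars) and with a peak within 1 kb of the TSS (dark bars) in the list of 10 pluripotency regulators and 9 further lists, with the number of genes at each bar. Dashed lines give the same shares over all coding genes, 62.5 and 50.1%. The 10 regulators lie near both lines, at 7 of 10 and 6 of 10.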

How the data were processed

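ATAC-Seq peaks of 2 day 5 CPC samples were analysed. Per the study's methods, the authors mapped reads to mm9 with bowtie2, kept properly paired primary alignments, removed duplicates with Picard 1.136 and called peaks in each replicate with MACS14, using a fixed shift and no fragment model. Peaks in the ENCODE blacklist were removed, and bedtools 2.15 kept peaks that overlapped the other replicate by at least 1 bp. No further correction for the Tn5 cut position is described. An annotation tool assigned the nearest TSS, a step stated for ChIP-Seq peaks. The deposited list has 6 columns and no score, and its values are peak start and end and the signed distance from TSS to midpoint, all in bp. Depth is therefore unknown, and a width carries the coordinates, caller and depth of a single replicate.

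Positions were read as BED and printed 1-based. Each of the 26232 distinct intervals on the 26429 lines was counted once. Gene models (GENCODE vM1) and sequence came from NCBIM37, which is mm9. Tfcp2l1 is named Tcfcp2l1 there. For the 7 genes with a peak, the TSS behind the distances lay within 24 bp of an annotated one. Coding genes were counted from a RefSeq table (GRCm38.p6, names only). Words of 32 bases were counted on both strands over the whole genome, in steps of 50 bp for the genome-wide values. Python 3.11.15, pysam 0.24.0, numpy 2.4.6 and samtools 1.23.1 were used, and interval and motif code was checked against full scans of simulated data. Alternatives were other peak filters, TSS distances, overlaps and gene assignments. The promoter sequence of Sall4 is not reported here. The named genes were the 10 regulators, the genes holding the peak nearest to each, and from every other list those with most peaks and those with none. Further genes were named after their values were seen. The members, lists and motifs were chosen with earlier results of these data known. There was 1 group, so no test was run.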

Additional observations from a re-analysis of the deposited data

How the results depend on the processing

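Of 22 alternatives to 5 results, 19 stayed within 1.5 times the main count or within the 95% interval of the median. Several of these could not move, so the count is no measure of robustness. A filter at 500 bp removed nothing, because the narrowest peak was 509 bp. A limit of 0.5 kb kept every TSS peak, because the farthest lay at 485 bp. Counting repeated lines cannot change which genes have a peak. The interval of the median, from the order of the 21 peaks, was 920 to 1323 bp for width. For absolute distance, whose median was 14481 bp, it was 485 to 26625 bp. It treats the peaks as independent, although several belong to the same gene and all come from a single list. It served only as a limit for change and does not measure replicate error. Keeping only peaks wider than the median of the list, in the absence of a score, lowered the peaks of the 10 genes from 21 to 11 and the genes with a TSS peak from 6 to 3 (Sox2, Lin28a and Sall4), by construction of the filter. Taking the widest peak of each gene raised the median width from 1090 to 1704 bp, also by construction. With only the wide peaks the median distance fell to 6948 bp, inside its interval only because that interval is broad.

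The number of genes with a peak ranged from 6, when narrow peaks were dropped and Zfp42 lost both of its own, to 8, when any peak within 10 kb of the gene body counted and Pou5f1 gained the Tcf19 peak. Assigning peaks to the nearest GENCODE coding TSS gave 25 peaks in 7 genes. Sox2 rose from 2 to 7, taking over peaks deposited under Sox2ot, Gm38509 and Mir6378 at −73694 to 521761 bp, and Sall4 lost its peak at −75330 bp to Zfp64. At the 5′-most coding TSS alone, 5 genes had a promoter peak, Esrrb being lost. Pou5f1, Prdm14 and Dppa3 had no peak by symbol or by nearest coding TSS. No replicate could be left out. No paired analysis was possible because both replicates share a single list and no second group was compared. Without scores or reads, absence from the list does not measure closed chromatin.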
